A study of Mus musculus with 14 samples.

Results

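Cyclic nucleotide signalling genes were followed in 14 RNA sequencing libraries of mouse PiC neurons. The genes were the cyclases that make cAMP and cGMP, the phosphodiesterases that break them down, and the kinases, exchange factors and transcriptional regulators that respond to them. They were taken by name, as every adenylyl cyclase (Adcy), phosphodiesterase (Pde), protein kinase A (PKA) catalytic, regulatory and inhibitor gene, the EPAC factors Rapgef3 and Rapgef4, Creb1 with its coactivators Crtc1 to Crtc3, the soluble guanylyl cyclase subunits (Gucy1) and the cGMP-dependent kinases (Prkg). This gave 53 of the 55401 genes in the count table.

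Each library came from 1 tube of 4 to 5 PiC neurons of C57BL/6 wild-type mice, picked by their EGFP fluorescence and amplified with SMART-Seq2. The label came from a retrograde AAV carrying EGFP, injected into the MeA or the PrL, so each tube held neurons chosen by a target of their axons. The groups were male PiC-MeA (n = 3), female PiC-MeA (n = 3), male PiC-PrL (n = 4) and female PiC-PrL (n = 4), with PiC, MeA and PrL written as in the labels. Nothing in the labels says that tubes came from separate animals, so p-values measure the spread between these tubes, which may be technical. The comparisons ask whether projection and sex go with different levels of these genes. A retrograde virus can label a neuron with further targets, and no age was given in the sources used here.

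Adenylyl cyclases turn ATP into cAMP when stimulatory G proteins, or for some family members calcium with calmodulin, act on them. PKA is held silent as a complex of catalytic subunits with a dimer of regulatory subunits, and cAMP that binds the regulatory subunits frees the catalytic ones. These phosphorylate ion channels, receptors and the transcription factor CREB1, while phosphodiesterases limit the signal in time and space. In neurons of the forebrain the pathway is known for its part in synaptic plasticity and in the response to neuromodulators.

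Total counts per library ran from 6132985 to 15392217, and the 53 genes took 0.428% to 0.744% of them. Genes with a count numbered 18964 to 20014 in male PiC-MeA libraries, 13672 to 14908 in female PiC-MeA, 12479 to 13683 in male PiC-PrL and 13436 to 14440 in female PiC-PrL libraries, so the male PiC-MeA libraries stood apart. Levels are given as CPM, the counts of a library scaled to a common total with the TMM method. Snap25, a synaptic vesicle fusion protein and neuronal marker, was at 3972 CPM or more in every library, whereas the neuronal markers Tubb3 and Nefl were listed at 0 in all 14. How the counting treated reads shared between genes is not known from the sources used here, so a 0 in every library does not show that a gene was silent. The excitatory marker sum over 7 genes was 879 to 2010 CPM in PiC-MeA libraries and 1289 to 1851 CPM in PiC-PrL libraries. Inhibitory markers summed over 10 genes varied widely, at 176 to 3362 CPM in male PiC-MeA, 43.8 to 233 CPM in female PiC-MeA, 143 to 518 CPM in male PiC-PrL and 394 to 5838 CPM in female PiC-PrL libraries. Such a pooled library cannot tell fewer cells of a type from less RNA per cell.

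Promoters of these genes are a natural place to look for the cAMP response element, the palindrome TGACGTCA bound by CREB1, or its shorter form TGACG. Of the 53 genes, 42 have an entry in the RefSeq promoter table of build GRCm38.p6, which spans 250 bases before to 50 bases after the start. The full element lay in the promoter of 1 of the 42, Prkar1a, against 2.03% of all genes in the table. TGACG, read on either strand and so counting every full element too, lay in 17 of the 42 (40.5%), against 23.0% of all genes. A gene counted if any of its listed starts had a match, so genes with more starts had more chances. The shares were not matched for this, and their difference was not tested. Windows from 130 bases before to 20 bases after the start are shown for the 3 genes that passed the test between projections, Adcy1, Prkaca and Prkar2a, as well as for Prkacb, the other catalytic subunit gene, and for Prkar1a, the regulatory subunit gene with the highest level. Capitals mark TGACG or its reverse complement CGTCA, and positions below give the first base of a match with the start as 0. All windows are written 5′ to 3′ along the gene.
Adcy1 (GRCm38.p6, chr11:7063303-7063452, plus strand): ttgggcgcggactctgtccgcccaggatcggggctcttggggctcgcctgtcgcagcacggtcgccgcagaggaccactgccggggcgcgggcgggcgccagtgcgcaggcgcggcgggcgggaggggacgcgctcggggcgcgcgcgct
Prkaca (GRCm38.p6, chr8:83972848-83972997, plus strand): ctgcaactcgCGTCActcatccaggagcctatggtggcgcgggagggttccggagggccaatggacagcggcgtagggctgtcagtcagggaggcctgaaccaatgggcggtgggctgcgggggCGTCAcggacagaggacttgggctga
Prkar2a (GRCm38.p6, chr9:108692013-108692162, plus strand): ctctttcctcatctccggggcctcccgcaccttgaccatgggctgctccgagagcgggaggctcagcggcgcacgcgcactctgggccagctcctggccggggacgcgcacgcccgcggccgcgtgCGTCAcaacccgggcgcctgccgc
Prkacb (GRCm38.p6, chr3:146812927-146813076, minus strand): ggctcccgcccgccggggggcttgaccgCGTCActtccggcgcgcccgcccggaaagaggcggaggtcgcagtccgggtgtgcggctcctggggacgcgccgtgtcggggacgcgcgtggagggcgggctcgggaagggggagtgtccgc
Prkar1a (GRCm38.p6, chr11:109650819-109650968, plus strand): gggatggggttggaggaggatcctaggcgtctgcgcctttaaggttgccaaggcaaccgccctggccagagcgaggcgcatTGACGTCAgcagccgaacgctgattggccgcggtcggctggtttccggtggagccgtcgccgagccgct

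The full element of Prkar1a began at position -49 of the shown start, which is 1 of 6 listed for that gene. The short form stood at -120 and -6 in Prkaca, at -4 in Prkar2a and at -102 in Prkacb. Where a gene has several listed starts, the one with the most matches is shown. The other of the 2 Prkaca starts and the other 2 of the 3 Prkacb starts held no match in the same window, and 4 of the 6 Prkar1a starts held none. Adcy1 and Prkar2a have 1 listed start each, and no match lay in the Adcy1 window. A match or its lack says nothing here about binding by CREB1.

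PKA subunits and 1 calcium-activated phosphodiesterase led the levels. On the scale of CPM per kilobase of exon, which allows genes to be compared, the mean over the 14 libraries was 231 ± 69.1 (SD) for Prkar1a and 172 ± 84.1 for Prkar1b, the type I regulatory subunits. Pde1a, a calcium and calmodulin-stimulated phosphodiesterase of both messengers, followed at 133 ± 50.6, then the catalytic subunit Prkacb at 70.6 ± 21.3, the PKA inhibitor Pkia at 68.9 ± 25.2 and the catalytic subunit Prkaca at 53.6 ± 35.2. The ranges of neighbours in this order overlapped, so the order within the first 6 is that of the means only. Among the 53 genes, 23 had at least 10 counts in all 14 libraries, 27 in 1 to 13 of them, and 3 (Pde2a, Adcy4 and Pde4c) in none. Pde2a, a cGMP-stimulated phosphodiesterase, had 0 counts throughout, as had Gm45837, which shares 64.32% of its exon bases. Reads from shared bases may have been assigned to neither gene, which was not tested, so this 0 is not evidence that Pde2a was silent.

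**Figure D1:**
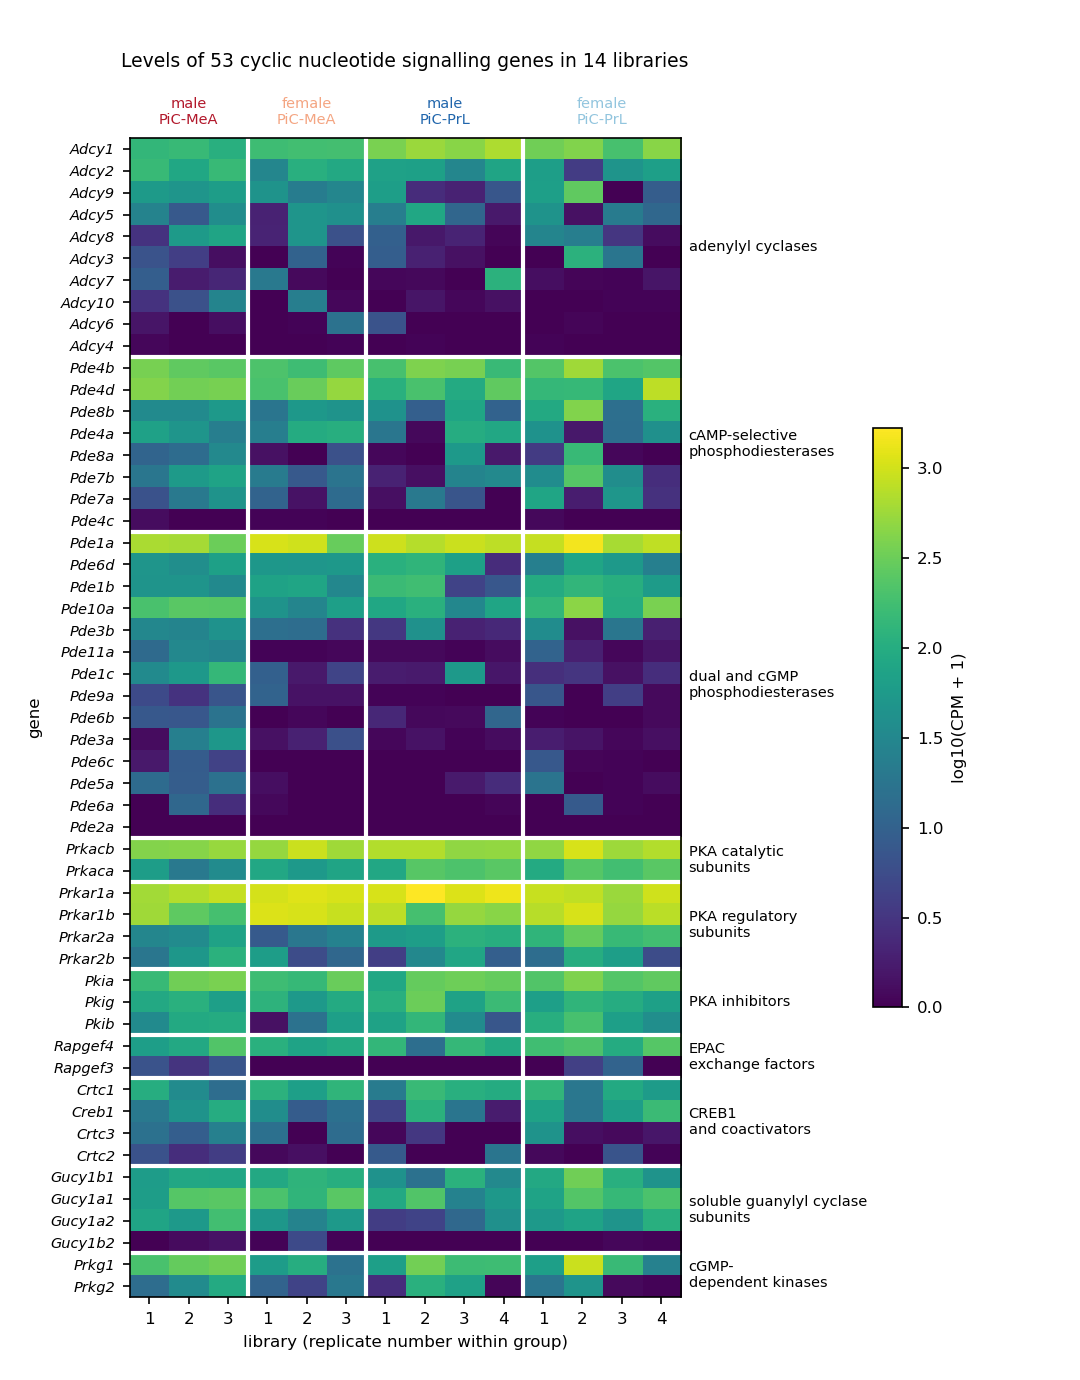
Levels of the 53 genes (rows, grouped by role) in the 14 libraries (columns, by group and replicate), as log10(CPM + 1). Prkar1a, Prkar1b, Pde1a and Prkacb are bright in every library, while many phosphodiesterases and cyclases are at or near 0 in some libraries of a group and not in others.

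Of the 10 adenylyl cyclases, Adcy1, the calcium and calmodulin-stimulated form of forebrain neurons, had the highest mean per length at 24.7 ± 14.2 CPM per kilobase. Adcy2, which G protein beta-gamma subunits stimulate, had 17.4 ± 9.96, and Adcy9, a form little sensitive to forskolin, had 9.28 ± 13.3. Adcy1 led the class in 8 libraries, namely all PiC-PrL libraries but 1 and female PiC-MeA 1. Adcy2 led in the other 5 PiC-MeA libraries, and Adcy9 led in female PiC-PrL 2, at 272 CPM. The leading cyclase thus followed the projection in most libraries. Adcy5, the main cyclase of the striatum, reached 0.398 to 83.0 CPM, and Adcy8, the other calcium-stimulated form, 0.0958 to 76.0 CPM. Adcy3, Adcy7, Adcy10, Adcy6 and Adcy4 averaged under 2 CPM per kilobase, and 22.09% of the exon bases of Adcy3 are shared with Cenpo, so reads of these genes may be mixed.

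Among the 8 phosphodiesterases that prefer cAMP, Pde4b and Pde4d, of the rolipram-sensitive family, led with 26.2 ± 10.9 and 23.8 ± 16.7 CPM per kilobase. Pde8b, a high-affinity form, had 12.1 ± 17.5, of which female PiC-PrL 2 held the highest value at 412 CPM. Pde4b led in 7 libraries and Pde4d in 6. Pde4d measured 416, 344 and 369 CPM in male PiC-MeA, 197, 309 and 519 CPM in female PiC-MeA, 109, 198, 92.7 and 272 CPM in male PiC-PrL, and 140.0, 143, 78.4 and 806 CPM in female PiC-PrL libraries. In males the groups did not overlap, and in females 1 PiC-PrL library lay above all others. With the length of the longest transcript in place of all exon bases, Pde4d took the lead of this class from Pde4b.

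Of the 14 genes whose products hydrolyse cGMP or both messengers, or belong to such enzymes, Pde1a led its class in all 14 libraries. Its level was 659, 620 and 314 CPM in male PiC-MeA, 1081, 977 and 300 CPM in female PiC-MeA, 954, 734, 925 and 801 CPM in male PiC-PrL, and 883, 1488, 636 and 830 CPM in female PiC-PrL libraries. Male PiC-MeA lay below male PiC-PrL without overlap, and the female groups overlapped. Pde6d, a chaperone of prenylated proteins and not an enzyme, had 25.7 ± 15.3 CPM per kilobase and Pde1b, which calcium and calmodulin also stimulate, 13.6 ± 9.71. Pde10a, known for its abundance in the striatum, followed at 12.2 ± 10.3. The striatal projection neuron markers, summed over 6 genes, were 22.9 to 52.9 CPM in male PiC-MeA, 29.8 to 45.6 CPM in female PiC-MeA, 0 to 37.1 CPM in male PiC-PrL and 1.01 to 21.5 CPM in female PiC-PrL libraries.

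Between the projections, 3 of the 48 tested genes passed the test when both sexes were averaged, all of them lower in PiC-MeA: Adcy1, the PKA catalytic subunit gene Prkaca and the type II regulatory subunit gene Prkar2a. These 3 are 6.25% of the 48, and over all 14599 tested genes 1.13% were called, 0.843% lower and 0.288% higher. No gene of the set was called higher. Of the 48, 26 had a negative and 22 a positive fold change, and the median was -0.13, against -0.00194 over all tested genes. The test was edgeR's quasi-likelihood test with Benjamini-Hochberg adjustment over all tested genes and an adjusted p under 0.05. By DESeq2 5 of 45 passed (11.1%, against 10.9% of all genes), and by limma voom 3 of 48 (6.25%, against 8.02%).

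Adcy1 (chr11:7063489-7178506, mm10) measured 134, 148 and 106 CPM in male PiC-MeA and 164, 174 and 179 CPM in female PiC-MeA libraries, against 378, 540.5, 443 and 675 CPM in male PiC-PrL and 331, 415, 193 and 450.3 CPM in female PiC-PrL libraries. All 6 PiC-MeA libraries lay below all 8 PiC-PrL libraries, as for 0.637% of all tested genes. Averaged over both sexes the log2 fold change was -1.49 ± 0.27 (SE; edgeR adjusted p = 0.0134), a level 0.355 times that of PiC-PrL. In males alone Adcy1 was the 1 gene of the 48 that passed (-1.98 ± 0.39, edgeR adjusted p = 0.0224), where 0.74% of all genes did, 0.678% lower and 0.0616% higher. In females the fold change was -1.01 ± 0.37 (edgeR adjusted p = 0.397), and the difference between the sexes was -0.97 ± 0.51 (edgeR adjusted p = 0.379). The averaged call was lost without female PiC-MeA 1 (adjusted p = 0.0543) or female PiC-MeA 2 (0.0527), and when male PiC-PrL 2 and 4 and female PiC-PrL 2, which had the fewest genes at 10 counts, were all left out (-1.31, 0.0876). With a covariate for how many genes each library detected, the fold change was -0.72 averaged and -0.51 in males (adjusted p = 1 each). The call in males was lost without male PiC-MeA 2 (0.103), male PiC-MeA 3 (0.139), male PiC-PrL 2 (0.0615) or male PiC-PrL 4 (0.0724), with no filter on low counts (0.0639), and without male PiC-PrL 2 and 4 and female PiC-PrL 2 together (-1.70, 0.173).

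The catalytic subunit gene Prkaca (chr8:83972993-83996443, mm10) measured 61.7, 19.0 and 34.9 CPM in male PiC-MeA and 84.7, 55.2 and 74.5 CPM in female PiC-MeA libraries, against 84.4, 241, 207 and 249.9 CPM in male PiC-PrL and 93.6, 233, 175 and 250.5 CPM in female PiC-PrL libraries. Male PiC-PrL 1 was the low one of its group, and it lay just under female PiC-MeA 1. Within each sex the projections did not overlap. The averaged log2 fold change was -1.87 ± 0.41 (edgeR adjusted p = 0.0397). It was -2.34 ± 0.60 in males (edgeR adjusted p = 0.0774) and -1.40 ± 0.57 in females (edgeR adjusted p = 0.397). The call was kept in 3 of the 14 fits that left out 1 library, those without male PiC-MeA 1, male PiC-PrL 1 or female PiC-PrL 1, and the adjusted p in the 14 ran from 0.0232 to 0.103. It was also lost with DESeq2's size factors (adjusted p = 0.0526), with no filter on low counts (0.0537) and without the 3 PiC-PrL libraries named for Adcy1 (-1.61, 0.203), and the covariate for detected genes turned the direction (1.21 averaged and 3.39 in males, adjusted p = 1 each). The pseudogene Prkaca-ps1 had 0 counts in all libraries.

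Prkar2a (chr9:108689314-108750436, mm10) encodes a regulatory subunit that binds anchoring proteins. Its level was 29.2, 35.0 and 70.0 CPM in male PiC-MeA and 7.25, 18.2 and 26.0 CPM in female PiC-MeA libraries, against 56.9, 63.0, 116 and 104 CPM in male PiC-PrL and 129, 291, 150 and 174 CPM in female PiC-PrL libraries. The female projections were far apart, and the male ones overlapped. Averaged over both sexes the log2 fold change was -2.18 ± 0.48 (edgeR adjusted p = 0.0389), with -0.93 ± 0.65 in males (adjusted p = 0.488) and -3.44 ± 0.73 in females (adjusted p = 0.348). Without the male PiC-MeA libraries the female value was -3.30 (edgeR adjusted p = 0.296). The averaged call was kept in 1 of the 14 fits that left out 1 library, the one without male PiC-PrL 1, and the adjusted p ran from 0.0384 to 0.0992. It was also lost with DESeq2's size factors (adjusted p = 0.0546), with no filter on low counts (0.0560), without the same 3 PiC-PrL libraries (-2.06, 0.131) and with the covariate for detected genes (-1.39, 1), under which the male value was 0.54.

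**Figure D2:**
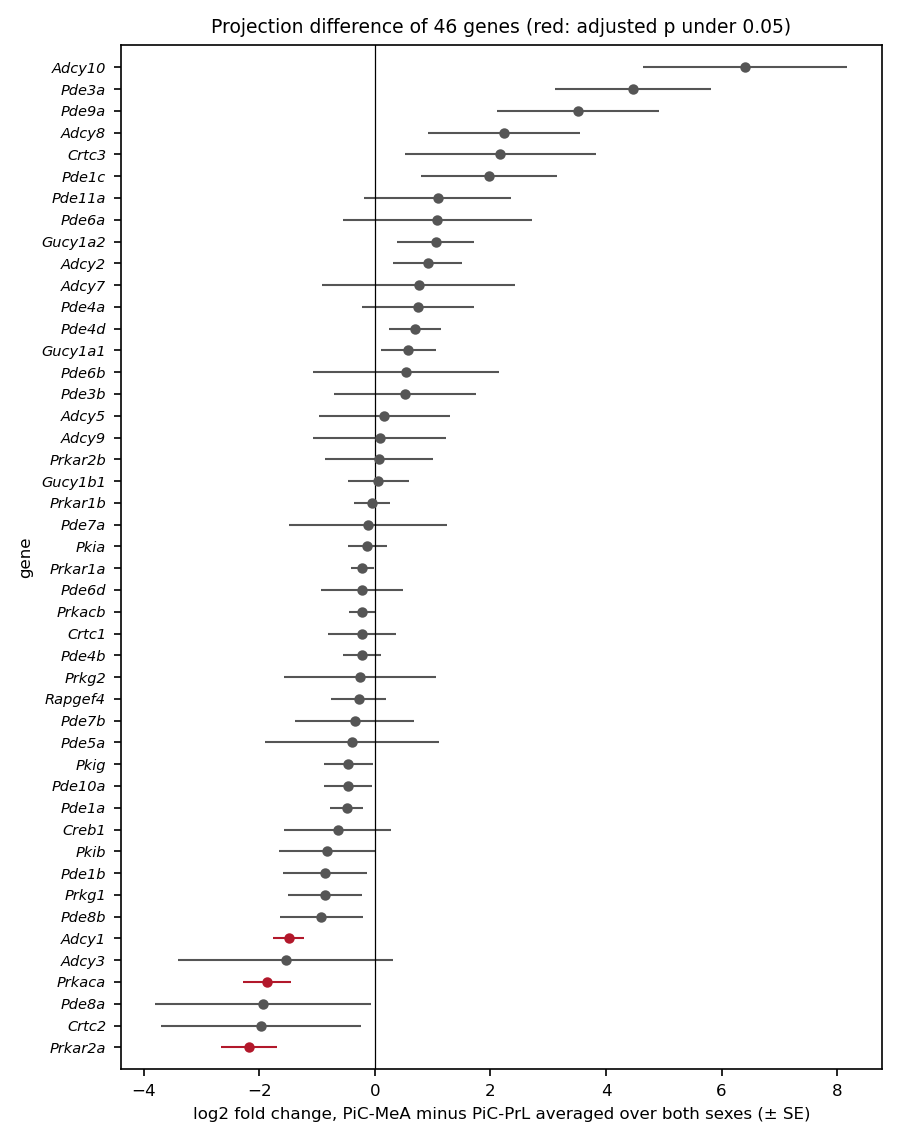
Log2 fold change between projections, PiC-MeA minus PiC-PrL averaged over both sexes (points, ± SE), for 46 of the 48 tested genes, the other 2 having a group at 0. The 3 called genes, in red, lie left of 0, and the genes at the top have wide errors.

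The other PKA genes did not pass in any comparison by this test. Prkacb, the catalytic subunit that was more abundant per length, averaged 460.0 ± 57.6 CPM in male PiC-MeA, 682 ± 222 CPM in female PiC-MeA, 604 ± 121 CPM in male PiC-PrL and 707 ± 249.8 CPM in female PiC-PrL libraries (SD, n = 3, 3, 4 and 4). Its averaged log2 fold change between projections was -0.22 ± 0.23 (edgeR adjusted p = 0.745). Prkar1a had -0.22 ± 0.19 (adjusted p = 0.681) and Prkar1b -0.05 ± 0.31 (adjusted p = 0.988). Prkar2b, the brain-enriched type II subunit, was at 3.02 to 114 CPM and had 0.07 ± 0.94 (adjusted p = 0.998). All 3 inhibitor genes had negative averaged fold changes and none was called. Pkia led that class in 12 libraries and Pkig in male PiC-PrL 1 and 2, and their means per length were 68.9 and 27.6 CPM per kilobase, with 5.71 for Pkib.

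**Figure D3:**
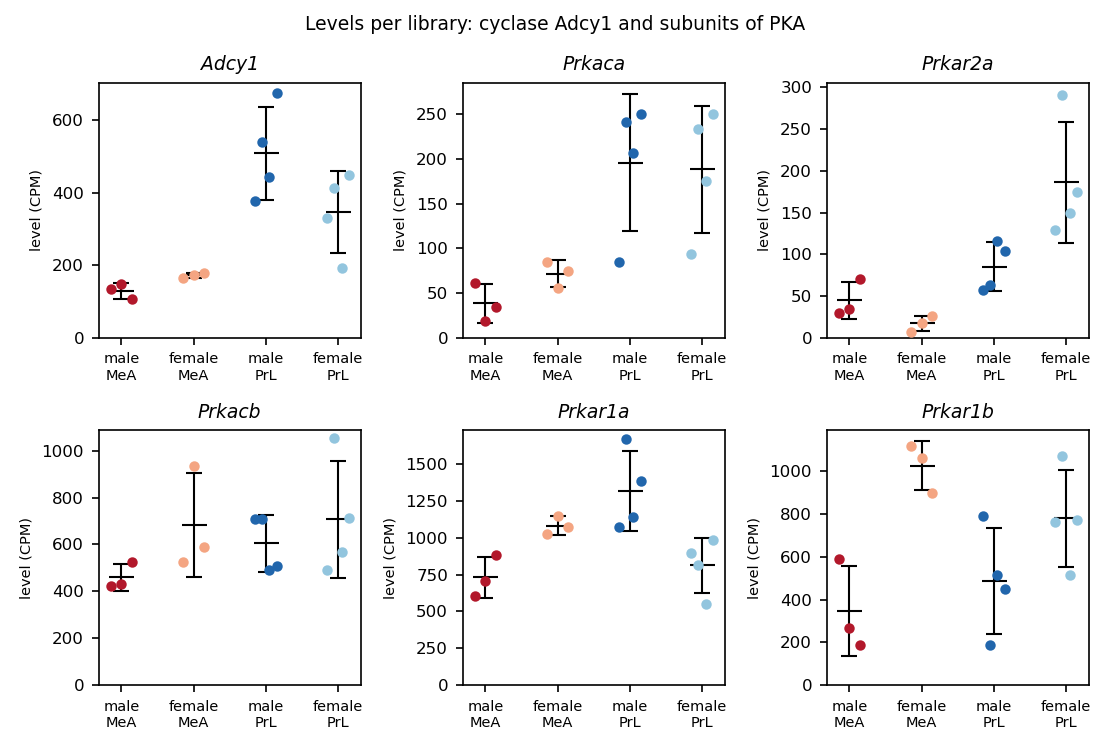
CPM per library (points), with the group mean and SD (bars), for Adcy1, Prkaca, Prkar2a, Prkacb, Prkar1a and Prkar1b. For Adcy1 the 6 PiC-MeA libraries lie below the 8 PiC-PrL libraries, whereas Prkacb overlaps in all groups.

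Ratios between these genes within a library do not depend on the scaling of libraries. Prkaca per length was 0.155 to 0.516 times Prkacb in male PiC-MeA and 0.208 to 0.571 times in female PiC-MeA libraries, against 0.420 to 1.73 times in male PiC-PrL and 0.674 to 1.24 times in female PiC-PrL libraries. The projections overlapped in males and did not in females. By exon bases, Prkaca was the lesser catalytic subunit in all 6 PiC-MeA libraries and the greater one in 5 of the 8 PiC-PrL libraries. That order depends on the length used. Prkacb has 8772 exon bases and a longest transcript of 4347 bases, against 2488 and 2276 for Prkaca. The longest transcript lowers every ratio, with mean levels of 142 for Prkacb and 58.5 CPM per kilobase for Prkaca. A lead of Prkaca in PiC-PrL libraries is therefore not settled. Adcy1 was 0.0414 to 0.0766 times Prkar1a in male PiC-MeA and 0.0523 to 0.0574 times in female PiC-MeA libraries, against 0.111 to 0.168 times in male PiC-PrL and 0.122 to 0.175 times in female PiC-PrL libraries, with no overlap between projections. Prkar2a was 0.0328 to 0.0538 times Prkar1a in male PiC-MeA and 0.0048 to 0.0164 times in female PiC-MeA libraries. It was 0.0255 to 0.0687 times in male PiC-PrL and 0.0977 to 0.241 times in female PiC-PrL libraries, so the male projections overlapped and the female ones did not. These ratios use the values of called genes and are a description with no test.

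**Figure D4:**
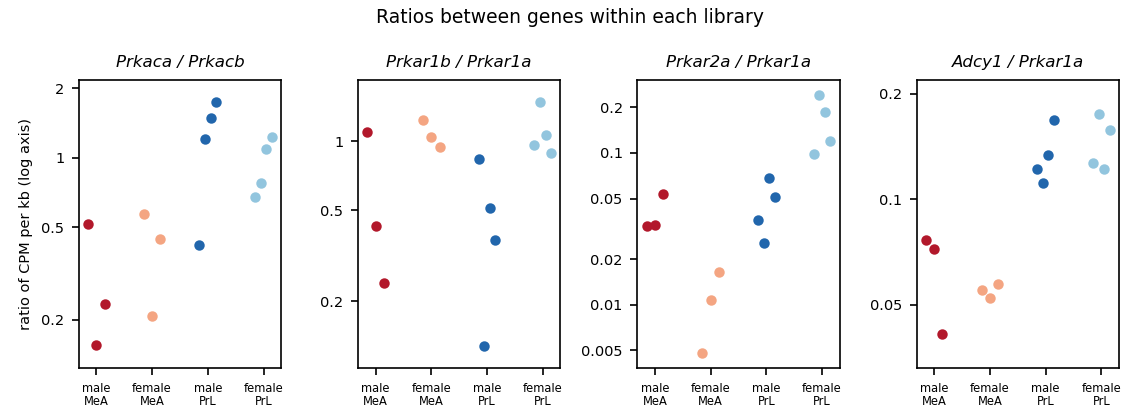
Ratio of CPM per kilobase between pairs of genes within each library (points, log axis) in the 4 groups. Adcy1 over Prkar1a separates all PiC-MeA from all PiC-PrL libraries (0.0414 to 0.0766 against 0.111 to 0.175), and Prkar2a over Prkar1a separates the female groups.

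Other measured quantities moved with the projection in the same libraries. The 8 pan-neuronal markers summed to 7197 to 10468 CPM in PiC-MeA and 11539 to 21730 CPM in PiC-PrL libraries, without overlap. Of the 6 that were tested, 5 had a negative averaged fold change and Snap25 was called lower. Snap25 made up most of the sum in each library, at 3972 to 7349 CPM in PiC-MeA and 6455 to 17167 CPM in PiC-PrL. The 9 astrocyte markers summed to 914 to 1276 CPM in male PiC-MeA and 442 to 601 CPM in female PiC-MeA libraries, against 1390 to 5705 CPM in male PiC-PrL and 886 to 1726 CPM in female PiC-PrL libraries. Aldoc was the astrocyte marker called lower, and Aqp4 and Gjb6 were at 0 in female PiC-MeA. Aldoc made up most of the astrocyte sum in every PiC-PrL library, at 613 to 4661 CPM, and was at 357 to 904 CPM in PiC-MeA. Both sums thus rest heavily on 1 gene each. Of 10 inhibitory markers 8 had a negative averaged fold change, 2 a positive one, and Npy was called lower. All 4 red blood cell markers were negative (median -2.36), and 4 of 5 tested striatal markers were positive (3.41). Oligodendrocyte markers were negative for 6 of 7, and endothelial and mural markers positive for 4 of 5. Excitatory, microglial and precursor markers were mixed, and none of these other lists held a call. The part of all these quantities in the differences of Adcy1, Prkaca and Prkar2a was not tested.

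Further genes came near the top of the projection comparison without passing. Adcy10, the soluble, bicarbonate-stimulated cyclase, had 2.00, 5.28 and 27.8 CPM in male PiC-MeA and 0, 22.9 and 0.123 CPM in female PiC-MeA libraries, against 0 to 0.526 CPM in male PiC-PrL and 0 to 0.0721 CPM in female PiC-PrL libraries. Its averaged log2 fold change was 6.41 ± 1.77 (edgeR adjusted p = 0.0569), and the value rests on counts that are near 0 in most libraries. Pde3a, a phosphodiesterase of cAMP that cGMP inhibits, had 4.47 ± 1.36 (adjusted p = 0.0726), with 23.4 and 50.5 CPM in male PiC-MeA 2 and 3 and at most 5.10 CPM elsewhere. The cGMP-selective Pde9a had 3.51 ± 1.41 (adjusted p = 0.182) at 9.56 CPM or less in every library.

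In males alone 15 of the 48 genes had projections that did not overlap, 11 higher and 4 lower in PiC-MeA, where 25.6% of all tested genes did not overlap, 18.8% higher and 6.79% lower. In females 6 did not overlap, 1 higher and 5 lower, where 8.44% of all genes did not overlap, 4% higher and 4.44% lower. The count in males (31.2% of 48) was near that of all genes. None of the 48 passed in females by edgeR, as none of the 14599 did (0%), with 9 at an unadjusted p under 0.05 (11.3% of all genes), 4 of 45 by DESeq2 (4.59%) and 0 by limma voom (0.185%). The members lower in both sexes without overlap were Adcy1 and Prkaca. Prkar1a was lower in male and higher in female PiC-MeA than in PiC-PrL of the same sex, and Pde10a was higher in male and lower in female PiC-MeA. Of the 5 lower in females, Pde11a rests at its nearest libraries on 2 counts in female PiC-MeA 3 against 2 counts in female PiC-PrL 3, under a floor of 3 counts, so its order there is not measured.

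Between the sexes no gene of the set passed edgeR's test in either projection or averaged over both. In PiC-MeA, 0 of 48 were called (0% of all genes), 8 had an unadjusted p under 0.05 (12.5% of all genes), 2 of 45 passed by DESeq2 (5.68%) and 9 by limma voom (12.2%). In PiC-PrL, 0 of 48 were called (0% of all genes), 12 had an unadjusted p under 0.05 (14.4%), 4 of 45 passed by DESeq2 (7.59%) and 0 by limma voom (0.0548%). Averaged over projections, 0 of 48 were called (0.0137% of all genes), 3 had an unadjusted p under 0.05 (10.7%), 1 of 45 passed by DESeq2 (4.92%) and 0 by limma voom (0.0205%). The groups did not overlap for 18 of 48 in PiC-MeA, 14 higher and 4 lower in males, where 26.4% of all genes did not, 17.6% higher and 8.88% lower. In PiC-PrL they did not overlap for 3 of 48, 1 higher and 2 lower, where 3.34% of all genes did not, 1.41% higher and 1.93% lower.

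Pde10a had the smallest unadjusted p of the set between the sexes in PiC-MeA. Its level was 200.3, 252 and 241 CPM in male PiC-MeA and 44.1, 28.3 and 65.4 CPM in female PiC-MeA libraries. In the other projection it was 83.3, 109, 30.1 and 78.6 CPM in male PiC-PrL and 134, 455, 99.6 and 378 CPM in female PiC-PrL libraries. Males were above females without overlap in PiC-MeA, and mostly below them in PiC-PrL, where female 3 lay under male 2. The log2 fold change of males over females was 2.33 ± 0.65 in PiC-MeA (edgeR adjusted p = 0.293) and -1.82 ± 0.55 in PiC-PrL (edgeR adjusted p = 0.282). The difference between these differences was 4.15 ± 0.86 (edgeR adjusted p = 0.150). That difference passed under 3 of 9 other settings besides the leaving out of single libraries, and over these its adjusted p ran from 7.39e-05 to 1. For the same difference 0 of 48 genes were called (0% of all genes), 10 had an unadjusted p under 0.05 (15.8%), 7 of 45 passed by DESeq2 (8.46%) and 5 by limma voom (4.84%).

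Prkar1a and Prkar2a, 2 of the 4 regulatory subunit genes, had opposite orders of the sexes in the 2 projections, though neither difference passed the test. The share of all genes with such opposite orders was not taken. Prkar1a, whose product holds PKA type I, was at 604, 707 and 882 CPM in male PiC-MeA against 1024, 1150 and 1074 CPM in female PiC-MeA libraries. It was at 1072, 1674, 1140 and 1384 CPM in male PiC-PrL against 897, 818, 547 and 985 CPM in female PiC-PrL libraries. Males were below females in PiC-MeA and above them in PiC-PrL, each without overlap. The log2 fold change of males over females was -0.57 ± 0.29 in PiC-MeA (edgeR adjusted p = 0.466) and 0.70 ± 0.25 in PiC-PrL (edgeR adjusted p = 0.282), and the difference was -1.26 ± 0.39 (edgeR adjusted p = 0.150). Prkar2a ran the other way, higher in males in PiC-MeA and lower in males in PiC-PrL, each without overlap, by the values above (difference 2.51 ± 0.91, edgeR adjusted p = 0.185).

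Prkar1b, the brain-enriched type I subunit, was at 588, 266 and 186 CPM in male PiC-MeA against 1120, 1063 and 898 CPM in female PiC-MeA libraries. In PiC-PrL it was at 790, 188, 514 and 450.4 CPM in males against 762, 1072, 516 and 774 CPM in females. The sexes did not overlap in PiC-MeA and did in PiC-PrL. Its log2 fold change of males over females averaged over projections was -1.13 ± 0.31 (edgeR adjusted p = 0.273), and -1.57 ± 0.48 in PiC-MeA (edgeR adjusted p = 0.293). Prkar1b was 0.239 to 1.10 times Prkar1a per length in male PiC-MeA and 0.948 to 1.24 times in female PiC-MeA libraries, and 0.127 to 0.836 times in male PiC-PrL and 0.891 to 1.49 times in female PiC-PrL libraries. The male libraries thus held less Prkar1b for each Prkar1a in most cases, with male PiC-MeA 1 within the female range.

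Several phosphodiesterases were near 0 in some groups and not in others. Pde11a, which hydrolyses both messengers, had 12.1, 30.6 and 27.4 CPM in male PiC-MeA and 0.0712 to 0.123 CPM in female PiC-MeA libraries. It had 0.0693 to 0.288 CPM in male PiC-PrL and 0.136 to 9.54 CPM in female PiC-PrL libraries, the highest of which was female 1. The log2 fold change of males over females in PiC-MeA was 7.85 ± 2.43 (edgeR adjusted p = 0.293), and that of PiC-MeA over PiC-PrL in males 6.96 ± 2.05 (adjusted p = 0.0774). Pde6b, a catalytic subunit of the rod photoreceptor enzyme, had 6.50 to 15.8 CPM in male PiC-MeA and 0 to 0.142 CPM in female PiC-MeA libraries, and 0.175 to 10.6 CPM in male PiC-PrL and 0 to 0.216 CPM in female PiC-PrL libraries. Averaged over projections its log2 fold change of males over females was 6.29 ± 1.75 (edgeR adjusted p = 0.273). Pde1c had 33.5 to 139.9 CPM in male PiC-MeA and 0.641 to 8.85 CPM in female PiC-MeA libraries, with 0.575 to 54.1 CPM in male PiC-PrL and 0.407 to 2.19 CPM in female PiC-PrL libraries (averaged 3.66 ± 1.31, edgeR adjusted p = 0.313).

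**Figure D5:**
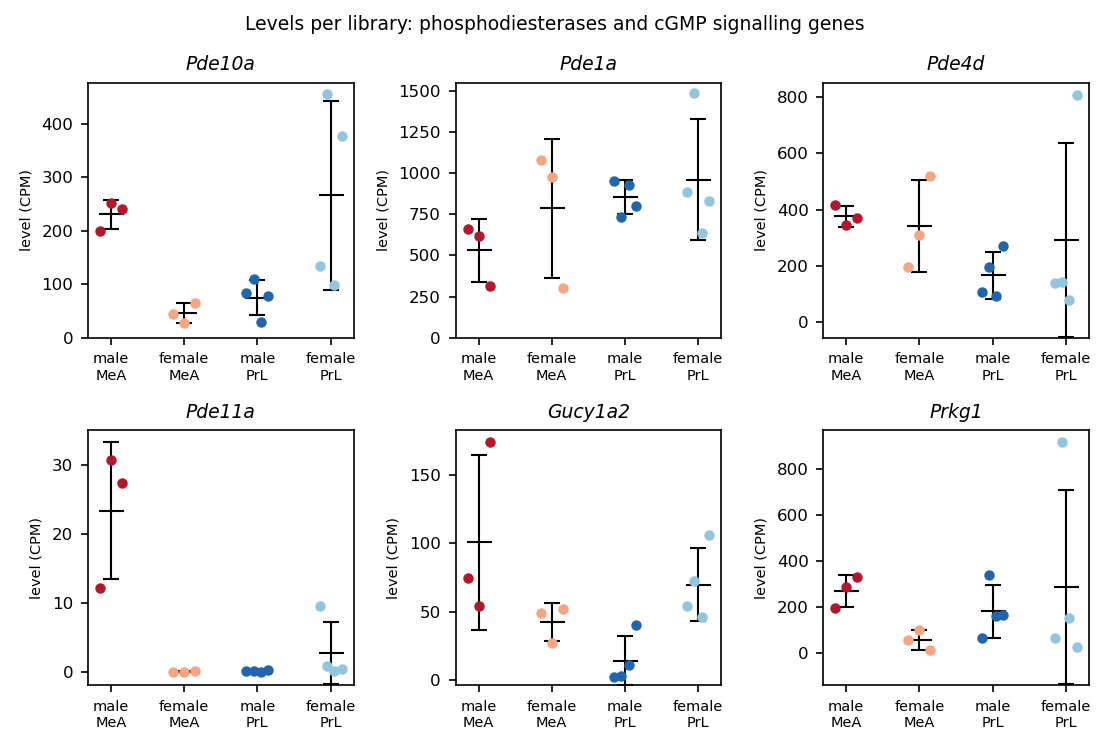
CPM per library (points), with the group mean and SD (bars), for 4 phosphodiesterases, the guanylyl cyclase subunit Gucy1a2 and the kinase Prkg1. Pde10a lies at 200.3 to 252 CPM in male PiC-MeA and 28.3 to 65.4 CPM in female PiC-MeA libraries, and Pde11a is near 0 outside male PiC-MeA but for 1 female PiC-PrL library.

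The same libraries detected more of the set. At least 10 counts were found for 45, 48 and 46 of the 53 genes in male PiC-MeA and 36, 36 and 38 in female PiC-MeA, against 37, 32, 36 and 32 in male PiC-PrL and 41, 34, 35 and 32 in female PiC-PrL libraries. The mean was higher by 9.67 genes in male than in female PiC-MeA libraries (exact two-sided permutation p = 0.1, adjusted over 4 comparisons 0.2) and by 12.1 genes in male PiC-MeA than in male PiC-PrL libraries (exact permutation p = 0.0571, adjusted 0.2). Those are the smallest p that 3 against 3 and 3 against 4 libraries allow. The male PiC-MeA libraries were also those with the most genes of any kind, as given above. Sums of endothelial and mural and of astrocyte markers were higher there than in female PiC-MeA libraries, while some other lists showed no such rise. The 8 endothelial and mural markers summed to 18.3 to 97.2 CPM in male PiC-MeA and 0.356 to 2.34 CPM in female PiC-MeA libraries, with a positive fold change of males over females for 5 of 5 tested (median 6.60). Cldn5, a tight junction protein of endothelial cells, was at 0 in all 14 libraries, which does not show that it was silent. Of the 9 astrocyte markers tested, 8 had a positive fold change (median 4.58), with sums of 914 to 1276 CPM in male PiC-MeA and 442 to 601 CPM in female PiC-MeA libraries. The fold change was positive for 3 of 7 tested microglial (median -0.27), 4 of 7 oligodendrocyte (0.18) and 2 of 4 red blood cell markers (-0.0065). It was positive for 3 of 4 oligodendrocyte precursor (2.67) and 8 of 10 inhibitory neuron markers (2.89). None of these markers was called, and the part of these quantities in the levels of Pde10a, Pde11a, Pde6b and Pde1c was not tested.

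The EPAC factors, which activate Rap GTPases when cAMP binds them, were led by Rapgef4, the form of brain and endocrine cells, in all 14 libraries. Rapgef4 had 18.6 ± 9.71 CPM per kilobase, and 64.1, 87.6 and 222 CPM in male PiC-MeA, 112, 72.5 and 91.2 CPM in female PiC-MeA, 137, 13.4, 139 and 89.0 CPM in male PiC-PrL, and 171, 209, 96.0 and 234 CPM in female PiC-PrL libraries. The 4 groups overlapped. Rapgef3 was at 0 in all female PiC-MeA and all male PiC-PrL libraries. It had 5.70, 2.07 and 6.01 CPM in male PiC-MeA libraries, and 3.08 and 9.69 CPM in female PiC-PrL 2 and 3. Against a floor of 3 counts per library its mean was at least 21.6-fold higher in male than in female PiC-MeA libraries. In female PiC-PrL the other 2 libraries were at 0, so no fold is given there.

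CREB1 and its coactivators, which carry the signal to transcription, were led by Crtc1, the form known from neurons, in 11 libraries. The means per length were 7.22 ± 4.09 CPM per kilobase for Crtc1, 3.45 ± 3.44 for Creb1 and 0.883 ± 1.29 for Crtc3. Creb1 led in male PiC-MeA 2 and 3 and in female PiC-PrL 4. Crtc1 ranged from 13.4 to 153 CPM and Creb1 from 0.767 to 157 CPM over the 14 libraries, with all 4 groups overlapping for both. Crtc2 had 1.61 to 5.55 CPM in male PiC-MeA and 0 to 0.356 CPM in female PiC-MeA libraries, and its log2 fold change of males over females averaged over projections was 3.10 ± 1.77 (edgeR adjusted p = 0.583).

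On the cGMP side, soluble guanylyl cyclase is a heterodimer that nitric oxide activates. Its subunits Gucy1b1 and Gucy1a1 had similar means per length, 24.1 ± 19.6 and 22.1 ± 11.8 CPM per kilobase, and each led in 7 libraries. The ratio of Gucy1a1 to Gucy1b1 was 0.580 to 1.77 in male PiC-MeA and 0.565 to 1.32 in female PiC-MeA libraries, against 0.128 to 8.45 in male PiC-PrL and 0.382 to 2.57 in female PiC-PrL libraries. Both PiC-PrL groups thus spread more widely. Gucy1a2, an alternative alpha subunit, had 74.9, 53.9 and 174 CPM in male PiC-MeA and 49.4, 27.1 and 52.4 CPM in female PiC-MeA libraries. It had 2.83, 3.42, 11.4 and 40.3 CPM in male PiC-PrL and 54.0, 72.4, 46.3 and 106 CPM in female PiC-PrL libraries, so males were higher in PiC-MeA and lower in PiC-PrL, each without overlap (difference 3.50 ± 1.39, edgeR adjusted p = 0.226). Gucy1b2 passed 10 counts only in female PiC-MeA 2.

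The kinases that cGMP activates were led by Prkg1, in 13 libraries, with 19.0 ± 21.3 CPM per kilobase, against 5.53 ± 6.79 for Prkg2. Prkg1 measured 196, 289 and 332 CPM in male PiC-MeA and 59.2, 102 and 15.5 CPM in female PiC-MeA, against 65.4, 342, 160.2 and 164 CPM in male PiC-PrL and 65.2, 916, 153 and 25.4 CPM in female PiC-PrL libraries. Male PiC-MeA lay above female PiC-MeA without overlap, and the PiC-PrL groups overlapped. Female PiC-PrL 2, which has the highest Prkg1, held the highest level of the 14 libraries for 14 of the 53 genes, Pde1a, Pde4b, Pde8b, Adcy9 and Prkar2a among them.

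Companion genes of the pathway gave 1 call. Among A-kinase anchoring proteins, which hold PKA near its substrates, 1 of 11 tested passed between projections averaged over both sexes, where 1.13% of all genes did. This was Akap5, which binds PKA and calcineurin at the postsynaptic density. Akap5 had 60.1, 87.8 and 112 CPM in male PiC-MeA and 83.6, 80.7 and 80.2 CPM in female PiC-MeA libraries, against 152, 591, 177 and 138 CPM in male PiC-PrL and 291, 241, 256 and 380.3 CPM in female PiC-PrL libraries. All PiC-MeA libraries lay below all PiC-PrL libraries, and the averaged log2 fold change was -1.73 ± 0.38 (edgeR adjusted p = 0.0379). Of all genes 0.932% did not overlap in either direction. The call was kept in 3 of the 14 fits that left out 1 library (adjusted p 0.0307 to 0.0992). It was lost with DESeq2's size factors (0.0541), without the 3 PiC-PrL libraries named for Adcy1 (-1.44, 0.0736) and with the covariate for detected genes (-1.38, 1). Of the 6 tested G alpha subunits, 5 had a negative averaged fold change (median -0.92) and none was called.

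The remaining lists held no gene past the threshold in any of the 7 contrasts. Tested were 8 cyclic nucleotide-gated and HCN channels, 12 other genes of the CREB family and its co-activators, 19 CREB-responsive genes, 5 membrane guanylyl cyclases, and 13 further effectors, transporters and regulators. Between projections the averaged fold change was positive for 5, 8, 5, 3 and 5 of them in that order of lists. Between the sexes, averaged over projections, all 19 CREB-responsive genes had a negative fold change of males over females, with a median of -0.82 against 0.05 over all genes, and Egr1 had the smallest p. In PiC-MeA 18 of the 19 were negative and in PiC-PrL 14, with medians of -0.95 and -0.78. Of all tested genes 52.1% were positive averaged over projections, 54.1% in PiC-MeA and 48.3% in PiC-PrL. The 19 genes were measured in the same libraries, so their signs are not separate observations. None of the 19 passed, so this is a description of the list.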

How the data were processed

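Counts per gene were deposited by the authors as 1 table of raw counts with a column for each of 14 libraries and no pooling or normalisation. Per the submitters' processing notes, Trimmomatic 0.39, HISAT2 2.2.1, SAMtools, featureCounts 2.0.1 and build mm10 were used. The sources used here give no annotation release, no strand setting and no rule for reads that several genes share. Positions and exon lengths came from GENCODE M21, in which 50 of the 53 genes have the same versioned identifier. Genes were filtered with filterByExpr (minimum count 10, minimum total 15), which left 14599 genes and 48 of the 53, and the untested were Pde2a, Adcy4, Adcy6, Pde4c and Gucy1b2. TMM scaling and robust quasi-likelihood fits were made in edgeR 4.0.16 (R 4.3.3) over all 4 groups, with 7 contrasts and Benjamini-Hochberg adjustment at 0.05. The fits were tested on simulated data for 1 comparison, the sexes in PiC-PrL, with planted changes larger than those called here. That test says nothing about changes of the size called here. DESeq2 1.42.0 and limma 3.58.1 voom served as alternatives. Levels are CPM, divided by exon length where genes are compared. Members and gene lists were chosen with earlier results of these data known. Named genes were those past the threshold, the 3 with the smallest p in each direction of a contrast, and the 3 highest of each role per length, besides other genes named as examples after their values were seen. A count of 0 was taken to allow up to 3 counts. Such floors cover counting error only. No column belonged to other samples.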

Additional observations from a re-analysis of the deposited data

Results flagged for a closer look

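Single libraries stood far from the others of their group for 15 of the 68 groups of 4 libraries examined, over 37 genes. For normally distributed values about 1 in 20 groups would pass this limit. The CPM values were not shown to be so distributed, so the 15 cannot be set against that rate. In male PiC-PrL, library 3 was low for Adcy2 (29.1 CPM, others 67.9 to 75.7) and high for Pde1c (54.1, others 0.575 to 0.739). Library 4 was high for Adcy7 (117, others 0 to 0.175) and Pde6b (10.6, others 0.175 to 1.29). Library 1 was high for Adcy9 (62.9, others 1.04 to 6.33) and low for Pkia (81.2, others 290.5 to 326). Library 2 was high for Creb1 (113, others 0.767 to 16.9) and Crtc3 (2.37, others 0 to 0.123).

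In female PiC-PrL, library 1 was high for Crtc3 (43.7 CPM, others 0.203 to 0.576), Pde11a (9.54, others 0.136 to 0.895) and Pde6c (6.66, others 0 to 0.0995). Library 2 was high for Pde4b (579.9, others 202 to 228) and Prkg1 (916, others 25.4 to 153). Library 3 was high for Crtc2 (5.83, others 0 to 0.164), and library 4 for Pde4d (806, others 78.4 to 143).

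For 4 genes every library of one comparison lay one way and every library of its counterpart the opposite way. The share of all tested genes that met this condition was not taken, so the 4 are not a result about the set. Without overlap were 25.6% of all tested genes between projections in males, and 26.4% between the sexes in PiC-MeA. The sex difference was opposite between projections for Prkar1a (difference -1.26, edgeR adjusted p = 0.150), Prkar2a (2.51, edgeR adjusted p = 0.185) and Gucy1a2 (3.50, edgeR adjusted p = 0.226). The projection difference was opposite between the sexes for Prkar1a and Pde10a (4.15, edgeR adjusted p = 0.150). Pde11a also met this condition by its CPM (11.73, edgeR adjusted p = 0.150), but its female order rests on 2 counts in female PiC-MeA 3 against 2 counts in female PiC-PrL 3, under the floor of 3, so no opposite direction was measured. None of these differences passed the threshold of 0.05.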

How the results depend on the processing

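The count of 3 genes called between projections, averaged over sexes, became 1 with DESeq2 size factors and 1 with no filter on low counts. By DESeq2's Wald test it was 5 of 45 in either direction (11.1%, against 10.9% of all genes). By limma voom it was 3 of 48 (6.25%, against 8.02%). It was 0 with a covariate for how many genes a library detected and 0 with the replicate block. It was 0 without male PiC-PrL 2 and 4 and female PiC-PrL 2, which had the fewest genes at 10 counts (chosen after seeing the data). With each library left out it was 0 to 3. In males the count of 1 became 0 with no filter, 0 with the covariate, 0 with the replicate block and 0 without the same 3 PiC-PrL libraries. It was 0 to 1 with each library left out. By DESeq2 it was 8 of 45 (17.8%, against 14.8% of all genes), and by limma voom 14 of 48 (29.2%, against 17.9%). With only the groups compared it was 6, for which no share over all genes was taken. In females the count of 0 became 4 by DESeq2. For sex, the count of 0 became 4 in PiC-PrL by DESeq2, 2 by DESeq2 and 9 by voom in PiC-MeA, and 1 by DESeq2 averaged. For the difference between sex differences it became 1 with no filter, 7 by DESeq2 and 5 by voom. The causes of these moves were not tested.

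Replicate numbers did not pair the libraries: over 19 pairs with the same number the correlations of deviations ran from -0.0379 to 0.0408. With the replicate block the averaged projection difference had an adjusted p of 0.0533 for Adcy1, 0.203 for Prkaca, 0.0902 for Prkar2a and 0.117 for Akap5. DESeq2 size factors moved the median fold change of all genes by 0.100 (averaged), 0.0998 (females) and 0.103 (males) between projections, and the 3 called genes stayed lower.

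The covariate, which is highest in the male PiC-MeA libraries, turned the direction for Prkaca (1.21 averaged, 3.39 in males), Prkar2a in males (0.54), Pde9a averaged (-1.38), Pde11a (-1.12), Pde3a (-0.29) and Pde6c (-13.52) in males, Prkacb between the sexes in PiC-MeA (0.84), Gucy1b1 between the sexes averaged (0.0019), and the difference between sex differences for Adcy1 (0.42) and Adcy7 (16.05). Adcy7 also turned between the sexes in PiC-PrL without male PiC-PrL 4 (-1.27 to 7.38 with each library left out) and without the 3 libraries (-2.11), between projections in females without female PiC-MeA 1 (-1.03 to 5.24), and in its difference by voom (0.17), without male PiC-PrL 4 (-9.55 to 0.34) and without the 3 libraries (1.15). The mean number of the 53 genes with at least 1 count turned for PiC-MeA over PiC-PrL in females (-0.58), and that with at least 10 counts for males over females in PiC-PrL without female PiC-PrL 1 (-2.42 to 0.58 with each library left out). Tubes of 4 to 5 cells and 3 to 4 libraries per group limit all values, and many levels under 10 CPM rest on few molecules.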
